A study of Drosophila melanogaster with 20 samples.

Results

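The yolk protein genes Yp1, Yp2 and Yp3 were 3 of the 14081 genes measured in whole larvae of Drosophila melanogaster, the fruit fly. They were picked by symbol, because earlier results of the same libraries showed them to be higher in one mutant line and nearly absent in the other mutant lines. Their levels against control are therefore given as a description, without a test. Yolk proteins are secreted by the fat body and by the follicle cells of the ovary in adult females. The growing oocyte takes them up through the receptor Yolkless as food for the embryo. In the adult fat body the female form of the transcription factor Doublesex turns the yolk protein genes on and the male form represses them. Ecdysone and juvenile hormone raise their transcription. They are known as genes of the adult female, and larvae lack a mature ovary.

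Whole larvae were taken at 4 days, at 25 °C, and their RNA was sequenced from both ends of each fragment after removal of ribosomal RNA. The series had 5 libraries in each of 4 groups, all on the wDah background. I172G larvae (genotype DmSAMC.I172G, titled a mild mutant) and P223L larvae (DmSAMC.P223L, titled a severe mutant) carry a changed amino acid in the fly's mitochondrial carrier of S-adenosylmethionine (SAM), the methyl donor of the cell. SAMC-null larvae (genotype written DnSAMC.M1fs;M39*, titled a severe null) have a frameshift and a stop codon at the start of that gene, and the control larvae have the genotype control. The labels call the lines genomically engineered and give neither the sex of the larvae nor how many were pooled. Separate cultures for the replicates are not stated, so p-values measure the spread between these libraries and may be technical. Effects of the carrier, of developmental stage and of other differences between the strains cannot be told apart.

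The normalised read counts of a library summed to 33.0 to 36.6 M (M, 1e6) in I172G, 24.8 to 26.1 M in P223L, 22.1 to 22.9 M in SAMC-null and 33.2 to 35.4 M in control. One read was worth an estimated 0.755 to 1.18 normalised counts. The carrier gene CG4743 stood at 144 to 199 in I172G, 184 to 249 in P223L, 90.4 to 121 in SAMC-null and 93.5 to 149 in control, which does not check the labels of lines made by sequence changes. Libraries stood apart in 2 groups. I172G replicate 1 held 1516 normalised counts of the ecdysone-induced receptor gene Eip78C against 37.4 to 58.9 in the other I172G libraries, and control replicate 4 had the lowest summed testis level of the controls and the highest yolk protein levels. Values without these libraries are given for some of the results that rest on them.

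Yolk protein transcripts were present in every control library, were several times higher on average in I172G larvae and came down to a few reads in P223L and SAMC-null larvae. Yp3 had the highest level of the family in both I172G and control. In I172G it stood at 4675, 8930, 5276, 4503 and 4544 normalised counts in replicates 1 to 5, against 1007, 420.5, 552.9, 1300 and 796.0 in control. Every I172G library lay above every control library. In P223L Yp3 stood at 4.59, 6.95, 0, 3.27 and 3.95, and in SAMC-null at 5.88, 4.04, 4.88, 14.26 and 12.49. No severe library came near the lowest control for Yp3.

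Yp2 stood at 1046, 1154, 1441, 898.8 and 556.9 in I172G, against 94.4, 84.73, 11.78, 295.9 and 85.31 in control. These groups did not overlap either, although control replicate 3 was low and control replicate 4 high. In P223L Yp2 stood at 6.30, 3.33, 2.18, 4.17 and 0, and in SAMC-null at 0.806, 6.21, 2.97, 4.27 and 4.28. The smallest of these above 0, 0.806 in SAMC-null replicate 1, is close to the estimated worth of 1 read. The largest came near control replicate 3, at an estimated 5.8 reads in P223L replicate 1 and 8.0 in SAMC-null replicate 2, against 10.0.

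Yp1 stood at 558.4, 790.1, 764.1, 423.4 and 123.5 in I172G, against 145.7, 49.84, 44.64, 292.8 and 171.0 in control. Of the I172G libraries, 4 lay above every control and replicate 5 lay within the control range, so this gene overlapped. In P223L Yp1 stood at 4.39, 1.11, 2.18, 7.27 and 3.67, and in SAMC-null at 2.41, 3.87, 3.10, 7.65 and 5.79. All 30 values of the family in the severe lines came to an estimated 0 to 17.1 reads, and the 2 values of 0 belong to P223L.

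**Figure D1:**
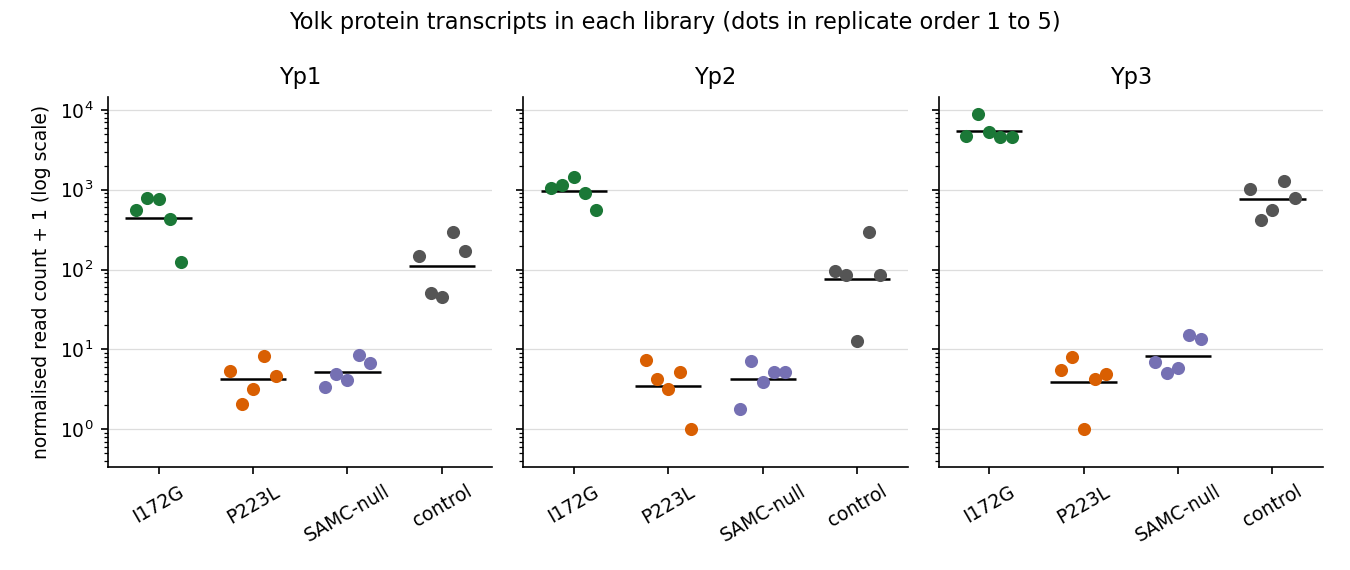
Normalised read count + 1 of Yp1, Yp2 and Yp3 on a log axis in each library of I172G, P223L, SAMC-null and control (dots, in replicate order), with the mean on the log scale as a bar. The I172G dots of Yp2 and Yp3 lie above all control dots, I172G replicate 5 of Yp1 lies among the controls, and all P223L and SAMC-null dots lie below all controls.

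Averaged over libraries, Yp3 came to 5586 ± 1895 normalised counts in I172G, 3.75 ± 2.51 in P223L, 8.31 ± 4.71 in SAMC-null and 815 ± 353 in control (SD, n = 5). Yp2 averaged 1019 ± 326 in I172G, 3.20 ± 2.34 in P223L, 3.71 ± 1.99 in SAMC-null and 114 ± 107 in control. Yp1 averaged 532 ± 274 in I172G, 3.72 ± 2.36 in P223L, 4.56 ± 2.14 in SAMC-null and 141 ± 102 in control. Each gene had the same order of groups, from I172G through control and SAMC-null to P223L. SAMC-null and P223L overlapped in all 3 genes, and I172G and control overlapped in Yp1.

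On the log2(value + 1) scale, I172G exceeded control by 3.66 ± 0.64 for Yp2, 2.83 ± 0.29 for Yp3 and 2.00 ± 0.60 for Yp1 (log2 difference ± SE from limma, 5 libraries each). As ratios of group means these were 8.91-fold, 6.85-fold and 3.78-fold. Of the 3 genes, 2 were higher in I172G with no overlap, where 10.1% of the 12253 genes tested were, and nothing is read from this count, since the genes were picked for it. Without control replicate 4 the log2 differences were 4.15 for Yp2, 3.03 for Yp3 and 2.35 for Yp1. Without I172G replicate 1 they were 3.64, 2.89 and 1.92 in the same order of genes. In the authors' deposited table the log2 fold changes were 3.16 ± 0.61 for Yp2, 2.78 ± 0.35 for Yp3 and 1.92 ± 0.55 for Yp1 (± SE).

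Against the same controls, the log2 difference of P223L was -7.58 ± 0.50 for Yp3, -4.71 ± 0.53 for Yp1 and -4.46 ± 0.74 for Yp2. That of SAMC-null was -6.49 ± 0.37 for Yp3, -4.41 ± 0.50 for Yp1 and -4.17 ± 0.69 for Yp2. The ratio of means was largest for Yp3, whose mean was 217-fold lower in P223L and 98.1-fold lower in SAMC-null than in control, while for Yp1 and Yp2 it was 37.8-fold and 35.8-fold in P223L and 30.9-fold for both in SAMC-null. In P223L the means were alike, 3.75 for Yp3, 3.72 for Yp1 and 3.20 for Yp2. The order of the P223L ratios thus follows the control means of 815, 141 and 114. At a few reads per library the pseudocount shrinks these log2 differences, and the level that is left is not much above the smallest that the libraries can show. All 3 genes were lower with no overlap in both lines, against a background of 37.2% of 12208 genes in P223L and 38.6% of 12252 genes in SAMC-null. Nothing is read from this count, since the genes were picked as nearly absent in these lines. In the authors' deposited table the values were -7.78 ± 0.48, -5.23 ± 0.65 and -5.17 ± 0.71 for Yp3, Yp1 and Yp2 in P223L, and -6.64 ± 0.40, -4.95 ± 0.62 and -4.95 ± 0.68 in SAMC-null. In RNA of whole larvae, fewer cells of a type and less RNA per cell cannot be told apart.

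Between the severe lines the levels of all 3 genes overlapped. The genes had been picked as nearly absent in both lines and fell under the filter on low values, so the differences come from a fit without it and carry no test. P223L minus SAMC-null was -0.30 ± 0.39 for Yp1, -0.29 ± 0.51 for Yp2 and -1.10 ± 0.51 for Yp3 (log2 difference ± SE). For Yp3, 3 P223L libraries lay below every SAMC-null library.

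Levels were then divided by exon length so that the genes could be set against each other. Yp3 made up 67.4 to 85.3% of the summed yolk protein level per kb in I172G libraries and 65.6 to 89.4% in control libraries. Yp2 made up 11.9 to 21.3% in I172G and 2.2 to 17.2% in control. Yp1 made up 2.69 to 11.3% in I172G and 8.37 to 18.1% in control. The order within the family was Yp3, then Yp2, then Yp1 in all 5 I172G libraries, whereas the ratio of Yp2 to Yp1 per kb was 1.45 to 4.49 there (median 1.88) and 0.263 to 1.69 in control (median 0.645). The ranges of this ratio overlapped. Yp3 ranked 696 in I172G, 12099 in P223L, 11571 in SAMC-null and 3230 in control among 13854 genes ordered by mean level per kb from the highest.

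**Figure D2:**
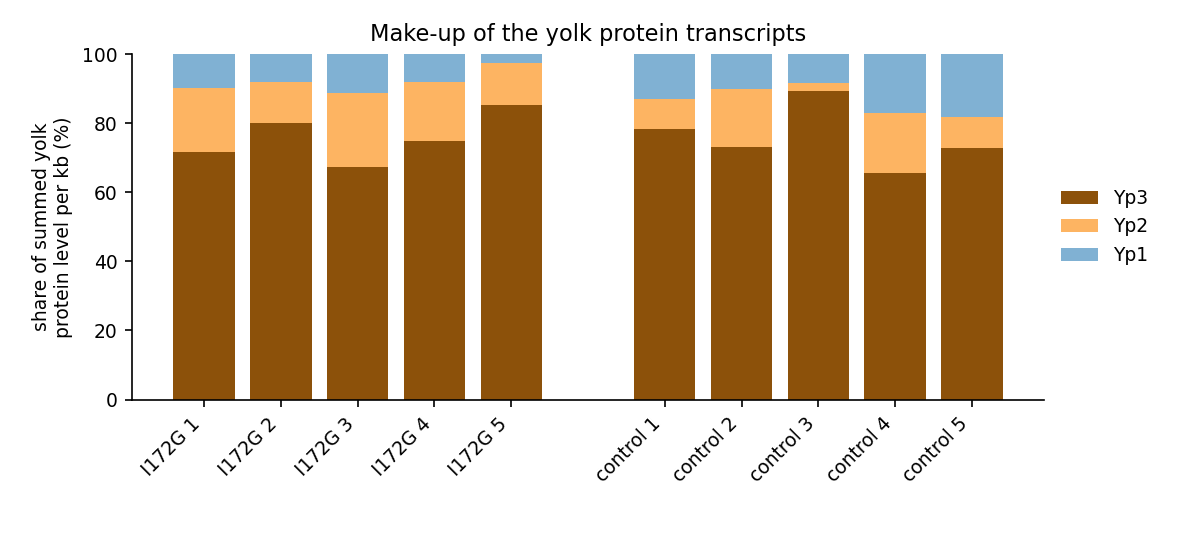
Share of Yp3, Yp2 and Yp1 in the summed yolk protein level per kb of exon (percent) in each I172G library and each control library. Yp3 holds 65.6 to 89.4% in every one of these libraries, and the Yp1 share is smallest in I172G replicate 5, at 2.69%.

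Replicates of one group varied widely. The highest control library had 25.1 times the Yp2 level of the lowest, 6.56 times the Yp1 level and 3.09 times the Yp3 level. In I172G the same ratio was 2.59 for Yp2, 6.4 for Yp1 and 1.98 for Yp3. Control replicate 4 was highest for all 3 genes, and control replicate 3 was lowest for Yp1 and Yp2. I172G replicate 5 was lowest for Yp1 and Yp2, and I172G replicate 2 was highest for Yp1 and Yp3.

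Yp1 and Yp2 are neighbours, transcribed away from each other from a shared stretch that in adult flies holds enhancers for the fat body and the ovary. In the Ensembl annotation of build BDGP 6.54, Yp2 (FBgn0005391) lies at chrX:10050951-10052636 on the minus strand and Yp1 (FBgn0004045) at chrX:10053811-10055498 on the plus strand, with 1174 bases between them. Yp3 (FBgn0004047) lies at chrX:13759546-13761547 on the plus strand, 3.7 Mb further along. Each interval spans the whole gene, exons and introns.

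Of the 15 other genes within 25 kb of them, 13 could be tested in I172G, and 3 were higher and 2 lower (limma, adjusted p under 0.05), where 32.2% of all genes were called. In P223L 5 of 14 were higher and 5 lower, where 78.7% of all genes were called, and in SAMC-null 5 of 14 were higher and 5 lower, where 81.7% were. These shares were near or under the background. The chitinase gene Cht6, 148 bases from Yp2, had log2 differences of 0.12 ± 0.10 for I172G, 0.30 ± 0.07 in P223L and -0.08 ± 0.06 in SAMC-null, of which the P223L value passed (limma adjusted p = 0.00228). CG15312, 131 bases from Yp1, was higher in P223L by 1.72 ± 0.14 and in SAMC-null by 2.04 ± 0.13 (limma adjusted p = 1.87e-07 and 1.47e-08), opposite in sign to Yp1. Its I172G value of 0.51 ± 0.18 passed with all libraries (adjusted p = 0.0469) and no longer passed without I172G replicate 1 (adjusted p = 0.091) or under other settings.

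Around Yp3, Rtc1, an RNA cyclase-like gene 948 bases away, had 0.14 ± 0.13 for I172G, 0.74 ± 0.10 in P223L and 0.61 ± 0.10 in SAMC-null, and it passed in the severe lines (limma adjusted p = 2.45e-05 and 9.20e-05). The phosphatidylinositol transfer gene rdgB, 1205 bases away, was lower in I172G by a log2 difference of -0.60 ± 0.08 (limma adjusted p = 0.000407). In P223L rdgB was higher by 0.17 ± 0.07 and in SAMC-null by 0.47 ± 0.05 (limma adjusted p = 0.0497 and 4.91e-06). Its P223L call was lost under several settings. The lowest neighbour in the severe lines was CG11151, at -1.88 ± 0.07 in P223L and -2.09 ± 0.07 in SAMC-null. Across the 3 comparisons the neighbours ran from -2.09 to 2.04, and none reached the log2 difference of the yolk protein gene beside it in the same comparison. Nothing is read from this, since the yolk protein genes were picked for these differences.

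**Figure D3:**
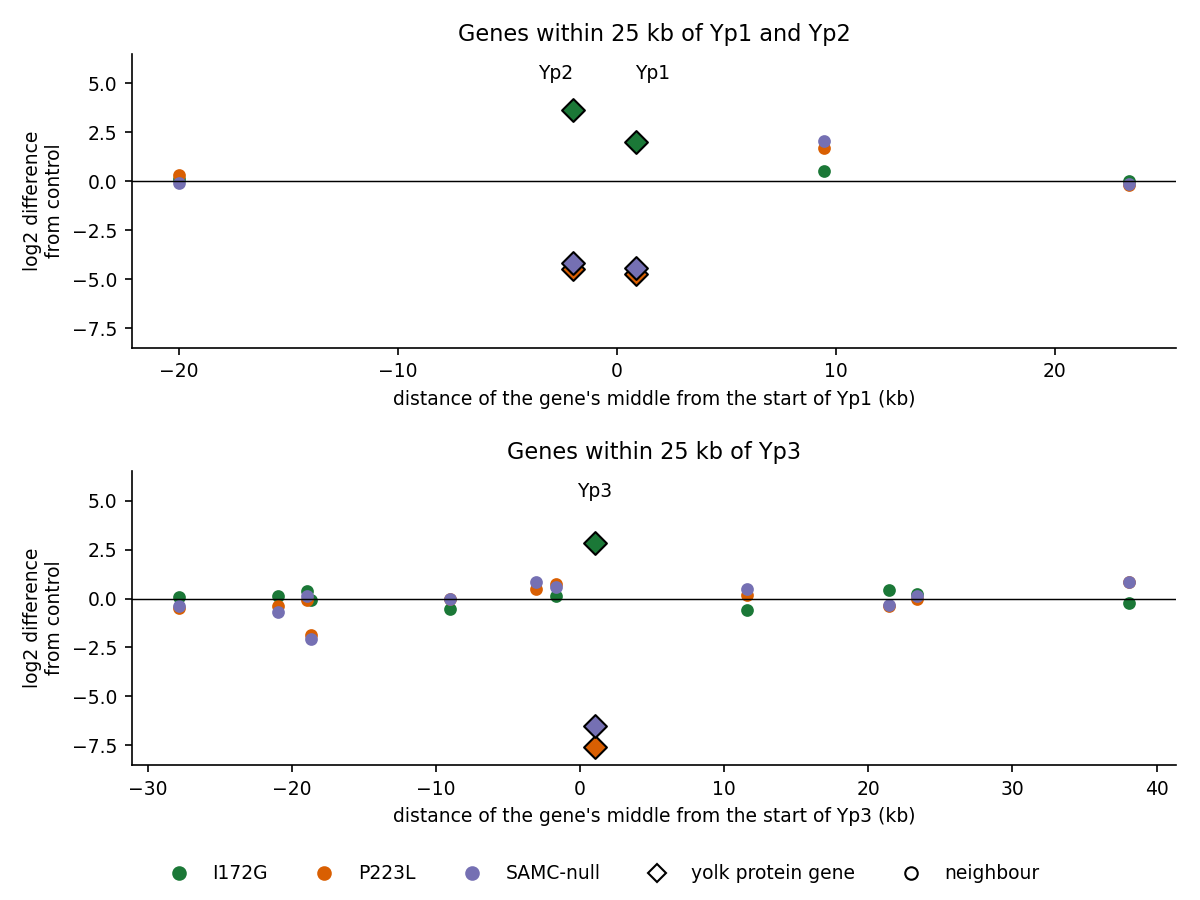
Log2 difference of I172G, P223L and SAMC-null from control for the yolk protein genes (diamonds) and the genes whose nearest edge lies within 25 kb (dots), by distance of the gene's middle from the start of Yp1 (top) or Yp3 (bottom) in kb. The yolk protein genes stand at 2.00 to 3.66 in I172G and at -7.58 to -4.17 in the severe lines, in each line outside the range of their neighbours in that line. They were picked for these differences, so nothing is read from this.

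Genes of yolk uptake did not follow the yolk proteins in all lines. Yolkless (yl), the yolk receptor of the oocyte, was scarce everywhere: it stood at 13.1, 15.0, 22.7, 27.0 and 14.7 normalised counts in I172G, 40.2, 30.9, 20.6, 26.9 and 22.3 in P223L, 37.4, 53.0, 51.0, 50.9 and 49.3 in SAMC-null and 16.0, 6.30, 3.51, 15.1 and 16.0 in control. It was higher in P223L by 1.38 ± 0.39 and in SAMC-null by 2.17 ± 0.37 (limma adjusted p = 0.00623 and 0.000132), with no overlap, while in I172G its difference of 0.79 ± 0.43 did not pass (adjusted p = 0.175). The mean level of the receptor was highest in the lines in which yolk protein transcripts were nearly absent. The chaperone gene boca, needed to fold receptors of the Yolkless kind, was higher in I172G by 0.32 ± 0.08 and lower in P223L by a log2 difference of -0.65 ± 0.09 and in SAMC-null by one of -0.70 ± 0.08 (limma adjusted p = 0.0108, 2.02e-05 and 4.35e-06). Tpst, listed in the tables as Tango13, encodes the enzyme that sulfates tyrosines of secreted proteins and was higher in I172G by 0.28 ± 0.06 (limma adjusted p = 0.00768). Of the 4 uptake and maturation genes, 2 were higher and the others did not pass in I172G, where 14.6% of genes were higher and 17.6% lower. In P223L 1 was higher and 3 lower, where 36.3% were higher and 42.4% lower, and in SAMC-null 1 was higher and 3 lower, where 38.2% were higher and 43.5% lower. By the authors' deposited adjusted p, which asks for a log2 fold change beyond 1 in size, 1 member of the 13 lists was called in I172G, an ecdysone response gene, and that p called 127 genes in all. The lower call of Tango13 in SAMC-null was lost when any of several libraries was left out.

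Eggshell genes, which the ovary transcribes as well as the yolk proteins, were barely present. Of 17 chorion and vitelline membrane genes found in the tables, 13 stayed under 10 normalised counts in all libraries of I172G, as did 13 in P223L, 13 in SAMC-null and 10 in control. Their summed level was 130.5 to 205.8 in I172G, 250.2 to 293.9 in P223L, 241.9 to 300.6 in SAMC-null and 144.2 to 267.2 in control. The ranges of I172G and control overlapped. The gene fs(1)N, whose product lies in the vitelline membrane, had a log2 difference of -0.79 ± 0.39 in I172G (limma adjusted p = 0.138) and passed there without control replicate 4, at -1.12 (adjusted p = 0.0117). It was lower in P223L and SAMC-null, at -1.69 ± 0.35 and -1.46 ± 0.38 (limma adjusted p = 0.000661 and 0.00326). There fs(1)M3 was higher by 2.46 ± 0.42 and 2.77 ± 0.42 (limma adjusted p = 0.000138 and 5e-05). Of 4 eggshell genes tested in I172G 0 were called, where 32.2% of all genes were. In P223L 2 of 3 were higher and 1 lower, against 36.3 and 42.4% of all genes. In SAMC-null 2 of 4 were higher and 2 lower, against 38.2 and 43.5%.

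Among regulators of the yolk protein genes, doublesex (dsx) changed in the same direction as they did in each line. It stood at 645, 699, 704, 642 and 711 normalised counts in I172G, 31.7, 36.9, 39, 40.2 and 37.7 in P223L, 30.6, 26.2, 29.7, 34.7 and 43.3 in SAMC-null and 462, 399, 467, 512 and 505 in control. No mutant group overlapped the controls. The log2 difference was 0.54 ± 0.08 for I172G, -3.62 ± 0.11 in P223L and -3.81 ± 0.14 in SAMC-null (limma adjusted p = 0.000779, 2.99e-11 and 9.44e-11). The values add the female and the male splice form of dsx, which act on the yolk protein genes in opposite directions, so they do not show which form changed.

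EcR, the ecdysone receptor, was higher in I172G by 0.60 ± 0.11 and lower in P223L by a log2 difference of -0.42 ± 0.06 and in SAMC-null by one of -0.26 ± 0.07 (limma adjusted p = 0.00306, 2.72e-05 and 0.00432). Its partner usp was higher in I172G by 0.23 ± 0.05 (limma adjusted p = 0.0108). The juvenile hormone receptor gene Met had a log2 difference of -0.05 ± 0.09 in I172G (adjusted p = 0.688) and was higher in P223L by 1.02 ± 0.08 and in SAMC-null by 1.18 ± 0.07 (limma adjusted p = 9.99e-08 and 4.58e-09). The C/EBP gene slbo, known for its part in follicle cells, had 538 normalised counts in I172G replicate 1 and 2.26 to 3.65 in the other I172G libraries, and it could not be tested there. It was higher in P223L by 3.72 ± 0.33 and in SAMC-null by 3.69 ± 0.31 (limma adjusted p = 3.53e-07 and 2.28e-07). CrebA, a regulator of secretion genes, was lower in P223L by a log2 difference of -0.76 ± 0.05 and in SAMC-null by one of -0.84 ± 0.05 (limma adjusted p = 4.05e-08 and 1.90e-08). Of the list of 11 regulators, 3 of 10 tested were higher in I172G, against 14.6% of all genes, and the others did not pass. In P223L 5 of 11 were higher and 3 lower, against 36.3 and 42.4% of all genes, and in SAMC-null 7 were higher and 4 lower, against 38.2 and 43.5%.

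**Figure D4:**
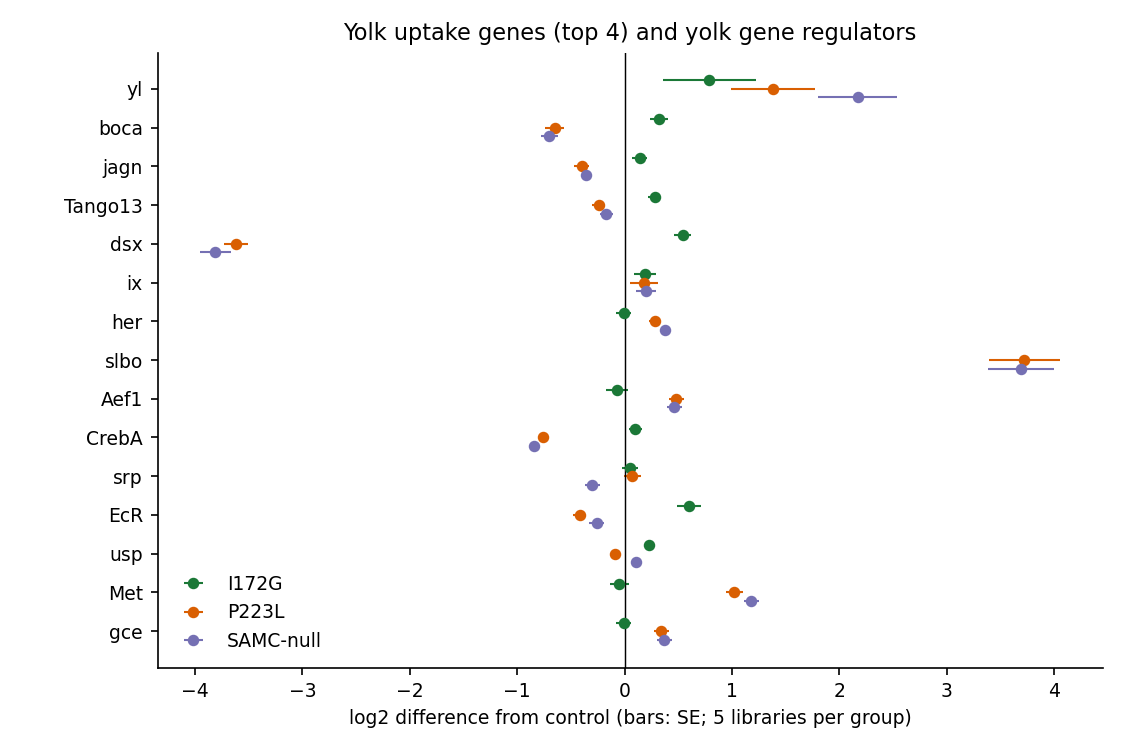
Log2 difference from control with its SE for the 4 yolk uptake and maturation genes and the 11 yolk gene regulators in I172G, P223L and SAMC-null (5 libraries per group). The regulator dsx stands at 0.54 for I172G, -3.62 in P223L and -3.81 in SAMC-null, and slbo, which is not shown for I172G, at 3.72 and 3.69 in the severe lines.

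Of 15 genes of sex determination and dosage compensation, 1 was higher (dsx) and 1 lower (fru, at -0.49 ± 0.09, limma adjusted p = 0.00318) in I172G, where 32.2% of all genes were called. In each severe line 8 were higher and 3 lower, against 78.7% of all genes called in P223L and 81.7% in SAMC-null. Sxl, the switch gene of female development, had 0.10 ± 0.11 in I172G (adjusted p = 0.508) and was higher in P223L by 0.78 ± 0.11 and in SAMC-null by 1.05 ± 0.10 (limma adjusted p = 2.47e-05 and 9.74e-07). The gene of the male dosage compensation subunit msl-2 had -0.26 ± 0.12 in I172G (adjusted p = 0.121) and passed there without control replicate 4, at -0.38 (limma adjusted p = 0.00549).

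Of 4 tested targets of dsx, 1 was lower in I172G, where 17.6% of all genes were lower, and the others did not pass. In each severe line 2 were higher and 2 lower, where 78.7% of all genes were called in P223L and 81.7% in SAMC-null. The odorant binding protein gene Obp99b, which is sex-biased in adults, averaged 187362 ± 16377 in I172G, 4.94 ± 6.53 in P223L, 1.46 ± 1.11 in SAMC-null and 165273 ± 35796 in control (SD, n = 5). In I172G its log2 difference of 0.21 ± 0.15 did not pass (adjusted p = 0.318). The gene takeout (to), a male-biased gene of the head fat body, was lower in I172G by a log2 difference of -0.72 ± 0.17 and lower in P223L and SAMC-null by ones of -2.79 ± 0.24 and -2.22 ± 0.23 (limma adjusted p = 0.009, 3.16e-07 and 1.34e-06).

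The larval fat body was present in I172G and control larvae, and its defining transcripts were nearly absent in the severe lines. The larval fat body list held 6 genes: Lsp1alpha, Lsp1beta, Lsp1gamma, Lsp2, Fbp1 and Fbp2. They summed to 4399002 to 4778116 normalised counts in I172G, 63.89 to 325.6 in P223L, 157.3 to 327.3 in SAMC-null and 3591103 to 4302462 in control. All 6 were lower in both severe lines, against 42.4% of all genes in P223L and 43.5% in SAMC-null, and 3 were higher in I172G, against 14.6%, of which Lsp2 was lost under several settings. Fbp1, the ecdysone-dependent storage protein receptor, stood at 187036, 149728, 103830, 145645 and 393563 in I172G, 4.38, 4.42, 2.17, 2.06 and 0 in P223L, 1.59, 0, 0, 1.69 and 2.54 in SAMC-null and 55526, 23011, 5673, 105170 and 23466 in control. It was higher in I172G by 2.64 ± 0.66 (limma adjusted p = 0.0126), and as with Yp1 and Yp2 control replicate 4 was its highest control and control replicate 3 its lowest. Fbp2 was higher in I172G by 0.91 ± 0.17 (limma adjusted p = 0.00297) and lost this call with all 4 groups in 1 fit.

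Not every fat body transcript was lost in the severe lines. The lipophorin gene apolpp, whose product carries lipid in the blood, averaged 595462 ± 28602 in I172G, 160979 ± 3005 in P223L, 73771 ± 5538 in SAMC-null and 526024 ± 37145 in control (SD, n = 5). It was lower by log2 differences of -1.71 ± 0.08 in P223L and -2.83 ± 0.08 in SAMC-null (limma adjusted p = 1.45e-09 and 1.47e-11), where the larval fat body list had a median of -15.62 in P223L and -15.70 in SAMC-null. The yolk protein genes lay between these values. Their drop is limited by their control level, a mean log2 of 9.56 for Yp3, 6.8 for Yp1 and 6.26 for Yp2. The larval fat body list had a mean log2 of 18.02 to 18.88 in the control libraries. The sizes of these drops therefore do not show which transcripts were lost more completely. Of the 6 genes in the list of lipoproteins and fat body secretion, LpR2 was lower in I172G, where 17.6% of all genes were lower. This call was lost under several settings, and the others did not pass. In each severe line 4 were higher and 2 lower (median 0.79 in P223L and 0.68 in SAMC-null), so most of the list went opposite to apolpp. Of all genes, 36.3% were higher and 42.4% lower in P223L, and 38.2 and 43.5% in SAMC-null. The lipophorin receptor genes LpR1 and LpR2 were higher by 1.19 ± 0.08 and 1.19 ± 0.06 in P223L and by 1.18 ± 0.08 and 1.02 ± 0.06 in SAMC-null. The lipid transfer gene Apoltp, named outside the rule for named genes, was higher by 0.89 ± 0.08 and 0.60 ± 0.07 (limma adjusted p under 0.05 for each of these genes). The gene Mtp had the smallest adjusted p of the list in both severe lines, and its values are not given here. The part of the fat body's state or size in the yolk protein levels was not tested.

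Several genes that respond to the molting hormone ecdysone were higher in I172G. The early ecdysone gene br was higher by 0.82 ± 0.12 and Eip74EF by 0.57 ± 0.12 in I172G (limma adjusted p = 0.000701 and 0.00511), and Eip75B had 0.01 ± 0.08 (adjusted p = 0.947). Of 18 ecdysone response genes 8 were higher and 1 lower in I172G, against 14.6 and 17.6% of all genes (median log2 difference 0.44, against -0.03 over all genes). I172G replicate 1 stood apart on this list, with a mean log2 level of 10.72 against 9.52 to 9.87 in the other I172G libraries and 9.27 to 9.53 in control. It held 831 normalised counts of the ecdysone-induced gene ImpE1 and 1645 of ImpE2, against 197 to 247 and 9.71 to 111 in the other I172G libraries, genes named after their values were seen. Without this library 8 were higher and 2 lower. In P223L 7 were higher and 8 lower (median 0.01, against -0.06), and in SAMC-null 9 were higher and 7 lower (median 0.09, against -0.06), near the shares over all genes. In the severe lines br had log2 differences of -1.58 ± 0.10 and -1.39 ± 0.08 and Eip75B had 1.50 ± 0.07 and 1.51 ± 0.08 in P223L and SAMC-null, all past the threshold.

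Of the ecdysone synthesis genes, sro, which acts early in the pathway in the prothoracic gland, stood at 1214, 1276, 1113, 1103 and 1265 in I172G, 40.3, 34.1, 27.0, 26.7 and 44.9 in P223L, 35.9, 54.1, 30.7, 53.1 and 30.4 in SAMC-null and 368, 394, 167, 918 and 503 in control. No group overlapped the controls, and control replicate 4 was again the highest control. The log2 difference was 1.55 ± 0.34 for I172G, -3.55 ± 0.35 in P223L and -3.33 ± 0.37 in SAMC-null (limma adjusted p = 0.00694, 1.22e-06 and 2.87e-06). Of 7 such genes tested, 2 were higher in I172G, against 14.6% of all genes, where the call of sad was lost when 1 of several libraries was left out and under the replicate block, and 1 was higher and 6 lower in each severe line, against 42.4 and 43.5% of all genes lower.

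Juvenile hormone genes were mixed. Of 11, 2 were higher and 3 lower in I172G, against 14.6 and 17.6% of all genes. In each severe line 4 were higher and 7 lower, against 36.3 and 42.4% of all genes in P223L and 38.2 and 43.5% in SAMC-null. The juvenile hormone esterase gene Jhe, whose product breaks the hormone down, was higher in I172G by 1.04 ± 0.18 and lower in P223L and SAMC-null by log2 differences of -2.71 ± 0.36 and -4.05 ± 0.33 (limma adjusted p = 0.00189, 1.55e-05 and 1.50e-07). The epoxide hydrolase gene Jheh1, which also degrades the hormone, was lower in each of the 3 lines, by log2 differences of -0.59 ± 0.13 for I172G, -2.31 ± 0.08 in P223L and -3.0 ± 0.08 in SAMC-null (limma adjusted p = 0.00831, 1.20e-10 and 6.90e-12).

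Glue genes, which the salivary gland turns on late in larval life, moved in both directions. Their summed level was 41687 to 116511 in I172G, 13385 to 17456 in P223L, 5360 to 7888 in SAMC-null and 17108 to 42753 in control. I172G and control overlapped only through control replicate 4, which was the highest control here too. Of 11 genes, 6 were higher and 2 lower in I172G (median 1.87), against 14.6 and 17.6% of all genes. These counts were 4 and 1 without control replicate 2, and 4 and 2 without control replicate 5. In P223L 3 of 10 were higher and 7 lower, against 36.3 and 42.4% of all genes, and in SAMC-null 1 was higher and 8 lower, against 38.2 and 43.5%, and fewer could be tested when a control library was left out, since the filter asks for 5 libraries. Eig71Ee, an ecdysone-induced gene of the gland, was higher in I172G by 3.02 ± 0.51 (limma adjusted p = 0.00183).

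Testis transcripts were lower in I172G. Of 24 genes, 19 were lower in I172G (median log2 difference -0.88), 21 in P223L (median -5.82) and 22 in SAMC-null (median -6.32), and the others did not pass. Of all genes, 17.6% were lower in I172G, 42.4% were lower in P223L and 43.5% were so in SAMC-null. The I172G count was 10 to 12 without I172G replicate 2 or 3 or control replicate 1, 2 or 5, and 24 without control replicate 4. In the severe lines it was 5 to 8 when a control library was left out, because most of these genes then had fewer than the 5 libraries that the filter asks for. Mst84Dd, a sperm tail gene, averaged 66.8 ± 26.9 in I172G and 163 ± 43.4 in control (SD, n = 5; log2 difference -1.32 ± 0.26, limma adjusted p = 0.00409) and was listed at 0 in all P223L and SAMC-null libraries. The summed testis level was 2953 to 4917 in I172G, 2018 to 2233 in P223L, 2065 to 2237 in SAMC-null and 4074 to 9578 in control, with control replicate 4 lowest among controls at 4074.

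In control and, less plainly, in I172G, libraries with more yolk protein RNA tended to have less testis RNA. In control, replicate 4 had the highest summed yolk protein level per kb (1061) and the lowest testis sum (4074), and replicate 2 had the lowest yolk protein level (308.4) and the highest testis sum (9578). In I172G, replicate 2 had the highest yolk protein level (5984) and the lowest testis sum (2953), while replicate 1 had the highest testis sum (4917) at the middle yolk protein level (3496). In SAMC-null, replicate 1 had the lowest yolk protein level (5.141) and, with replicate 3, the lowest testis sum (2065). There 17 of the 24 testis genes stayed under 10 normalised counts in all libraries. After each group's mean was taken out, all 24 testis genes had a negative Pearson r with the mean log2 level of the yolk protein genes over the 10 I172G and control libraries (median r = -0.60), whereas 6578 of 12266 genes did overall (median r = -0.06). All 4 yolk uptake genes had a positive r (median 0.80), and so did 5 of 6 larval fat body genes (median 0.52) and 8 of 11 glue genes (median 0.50). Lists of female tissue did not: 11 of 14 genes of the ovary and female germline had a negative r (median -0.49), as did all 4 eggshell genes with a value (median -0.46). Of the 18 ecdysone response genes, 15 had a negative r (median -0.18). The points share their libraries and their scaling, and these values describe 10 libraries only. Control replicate 4 was the highest control in yolk protein level and the lowest in testis sum, and no r without it is given. The sex of the larvae is not labelled, and its part in the yolk protein levels, like that of stage, was not tested.

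**Figure D5:**
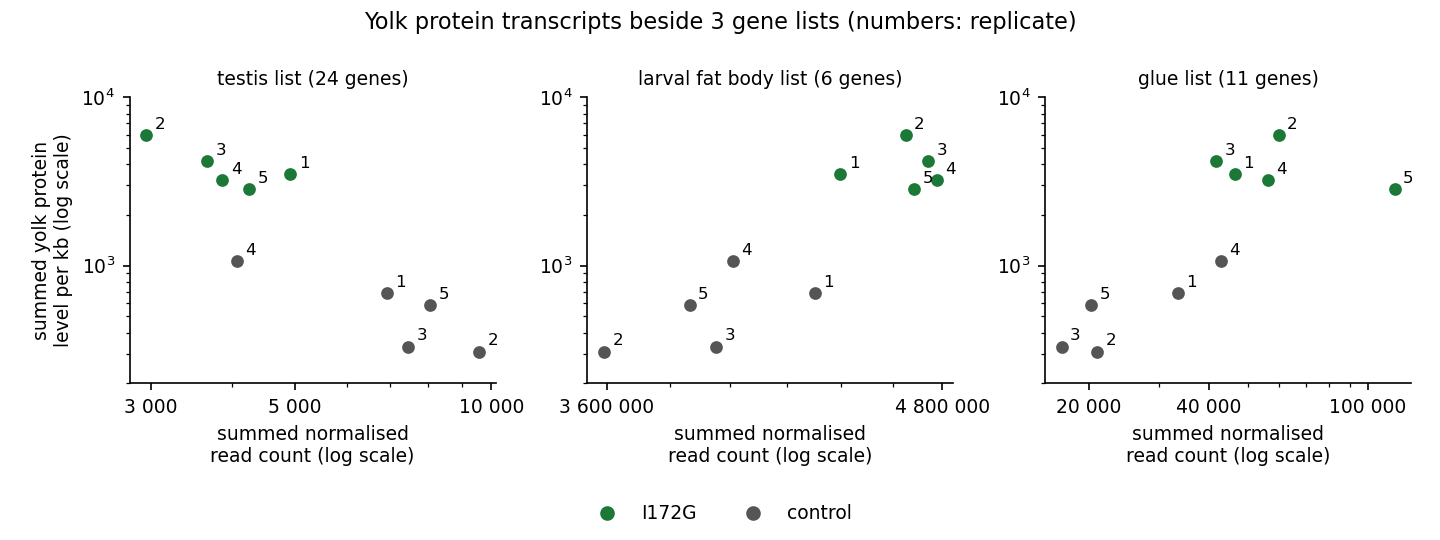
Summed yolk protein level per kb against the summed normalised read count of the testis, larval fat body and glue lists in each I172G and control library (both axes log scale, numbers give the replicate). Control replicate 4 has the highest yolk protein level of the controls, at 1061, the lowest testis sum and the highest glue sum.

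Genes of the female germline were called about as often as genes overall. Of 14 tested, 1 was higher and 3 lower in I172G, against 14.6 and 17.6% of all genes, with 1 lower when any of several libraries was left out, and 4 were higher and 6 lower in each severe line, against 36.3 and 42.4% of all genes in P223L and 38.2 and 43.5% in SAMC-null. The transcription factor gene ovo was higher in I172G by 0.40 ± 0.07 (limma adjusted p = 0.00299) and lower in P223L and SAMC-null by log2 differences of -0.58 ± 0.07 and -0.44 ± 0.07 (adjusted p = 6.28e-06 and 0.000112). The gene exuperantia (exu), used in both germlines, was lower in I172G by a log2 difference of -0.90 ± 0.24 and in P223L and SAMC-null by ones of -4.03 ± 0.22 and -4.37 ± 0.22 (limma adjusted p = 0.0164, 4.05e-09 and 1.84e-09).

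Genes were ranked by how closely their log2 level followed the mean of the 3 yolk protein genes. Over all 20 libraries, among 12267 genes with a mean of at least 10, the closest were Fkbp14 (Pearson r = 0.993), Sec61alpha (0.988), ERp60 (0.988), CG1718 (0.987) and CG7011 (0.986). Fkbp14 is a prolyl isomerase of the endoplasmic reticulum, Sec61alpha the channel that takes proteins into it, and ERp60 a disulfide isomerase inside it. Sec61alpha averaged 20221 ± 2655 in I172G, 5425 ± 330 in P223L, 5152 ± 48.7 in SAMC-null and 13210 ± 1773 in control (SD, n = 5), a far narrower range than that of the yolk protein genes. The 20 libraries fall into separate groups on the yolk protein scale, so this r mostly describes the levels of the groups.

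With each group's mean taken out, over the 10 I172G and control libraries and 12266 genes, the closest were mRpS18A (r = 0.956), Cisd2 (0.953), CG14805 (0.947), Jafrac2 (0.947) and Prosalpha2 (0.946). As the highest of 12266 values over 10 libraries, these r were not tested against chance. They encode, where known, a mitochondrial ribosomal protein, an iron-sulfur protein, a peroxiredoxin of the secretory pathway and a proteasome subunit. The yolk protein genes themselves had r = 0.944 for Yp1, 0.911 for Yp2 and 0.811 for Yp3 with their own mean, to which each contributes. mRpS18A had a log2 difference of -0.08 ± 0.16 in I172G (limma adjusted p = 0.734), and Jafrac2 one of 0.51 ± 0.08 (limma adjusted p = 0.00101), so a gene that varied with the yolk proteins from library to library did not always differ between the groups.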

How the data were processed

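Total RNA of whole larvae was sequenced in 20 libraries, 5 per group, with groups taken from the labels. Salmon 0.11.3, DESeq2 1.26.0 and build BDGP6 are named in the authors' processing, per the submitters' processing notes. The deposited tables hold a signal per gene and library, the authors' normalised read count, with a log2 fold change, a score and a p-value per comparison. That p tests for a log2 fold change beyond 1 in size, as the score in the deposited tables shows. The control columns match across the 3 tables to 0.005. Between 62.3 and 81.0% of low values lay near whole reads, so no counts were recovered. Read totals estimated from the step between low values were 23.5 to 35.2 M per library, where the labels state 3 M.

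Comparisons were fitted with limma 3.58.1 (R 4.3.3, intensity trend) on log2(value + 1) of 5 libraries per group. A gene entered the test if 5 or more of the 10 libraries reached a value of 10, with two-sided p-values adjusted by Benjamini-Hochberg over all of them and a threshold of 0.05. The fit was tested on simulated data. The members, the 13 gene lists and the tests were chosen with earlier results of these data known. Named genes were taken from those of smallest adjusted p in each list, up to 4 per comparison, and the 5 most like the yolk protein mean, with yl, dsx and msl-2 always included. Apoltp, ImpE1, ImpE2 and the carrier gene were named outside this rule. Genes within 25 kb were added after the values were seen, as was the unfiltered fit of P223L against SAMC-null. Protein relatives of the family and the roX genes were not analysed here. Positions come from Ensembl release 115 (BDGP 6.54), matched by identifier. Alternatives changed the pseudocount (0.5 or 4), the filter (none or 50), the scaling (median ratios), the libraries (1 left out in turn), the design (replicate block, or all groups in 1 fit) and the test (the authors' adjusted p). Tables and figures were made in Python 3.11.15 with matplotlib 3.10.9, numpy 2.4.6 and pandas 2.3.3.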

Additional observations from a re-analysis of the deposited data

Results flagged for a closer look

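Among 206 sets of 5 libraries, 1 per gene named and group, 13 held a library far from the other 4 by Dixon's test (critical value 0.71), where chance gives about 1 in 20. For the yolk protein genes this was Yp3 in I172G replicate 2, at 8930 normalised counts, with the other I172G libraries at 4503 to 5276.

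I172G replicate 1 had slbo at 538 (others 2.26 to 3.65), Eip78C at 1516 (others 37.4 to 58.9), ImpE1 at 831 (others 197 to 247) and ImpE2 at 1645 (others 9.71 to 111). I172G replicate 5, the lowest I172G library for Yp1 and Yp2, had Fbp1 at 393563 (others 103830 to 187036) and ovo at 1571 (others 1295 to 1359), and CG14805 at 524 (others 574 to 587).

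In P223L, replicate 4 had Lsp2 at 44.7 (others 2.23 to 9.83) and replicate 3 had CG14805 at 689 (others 770 to 801). In SAMC-null, replicate 1 had yl at 37.4 (others 49.3 to 53.0), replicate 3 had the carrier gene CG4743 at 90.4 (others 113 to 121) and replicate 4 had exu at 141 (others 118 to 125).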

How the results depend on the processing

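The 156 recomputed differences of the yolk protein genes kept their direction or moved by less than the spread between libraries. With 1 library left out in turn, the I172G difference from control was 1.68 to 2.47 for Yp1, 3.02 to 4.15 for Yp2 and 2.62 to 3.03 for Yp3. In P223L it was -5.03 to -4.36, -5.11 to -3.97 and -7.84 to -7.09, and in SAMC-null -4.73 to -4.06, -4.81 to -3.68 and -6.70 to -6.29. P223L minus SAMC-null was -0.54 to -0.05 for Yp1, -0.60 to 0.16 for Yp2 and -1.35 to -0.60 for Yp3, so the sign for Yp2 is not settled. Genes called were 2740 to 5049 in I172G, 8463 to 9354 in P223L, 8864 to 9680 in SAMC-null and 4722 to 5261 between the severe lines, against 3940, 9606, 10006 and 5298 with all libraries. By the authors' adjusted p the counts were 127 (40 higher, 87 lower), 3442 (1123 and 2319) and 3780 (1290 and 2490). This p asks for a log2 fold change beyond 1 in size, since the deposited score equals that size minus 1, over its SE, in all genes with a score other than 0 (2034, 5753 and 6185 genes, to 0.01), where the limma test asks for any difference. By it, 30 of 39 counts of list members called moved by more than 1.5 times and 9 did not, and in I172G 1 member in all was called.

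Equal replicate numbers did not pair the libraries: deviations of same-numbered libraries correlated at -0.20 to 0.03 between I172G and control, -0.11 to 0.09 for P223L, 0.02 to 0.11 for SAMC-null and -0.06 to 0.07 between the severe lines. In 1, 2, 2 and 1 of 10 libraries the closest was its own number. The replicate block kept all 4 counts of called genes within 1.5 times; testis genes lower in I172G were 11 with it. Among single genes, 5926 results kept their side of the threshold, 347 lost their call and 50 gained one, 129 of the losses by the authors' p. The low read numbers of the severe lines limit what can be said of their yolk protein levels.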
